A study of Mus musculus with 6 samples.

Results

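The 10 genes of DNA methylation and of KRAB zinc finger repression studied here, the KRAB domain being the part of these DNA-binding proteins that calls in corepressors, were followed across a pair of mouse mammary carcinoma lines, 4T1 and 4TO7. They were taken by symbol from 47729 listed genes: Dnmt1, Uhrf1, Dnmt3a, Dnmt3b, Dnmt3l, Tet1, Tet2, Tet3, Trim28 and Setdb1. Both lines are of the BALB/c strain and are labelled as coming from a spontaneous tumour; they were grown in DMEM with serum, with no treatment, and sequenced as 3 libraries of total RNA per line. No transgene, deletion or agent is named for either line, and nothing in the labels tells if a line's 3 libraries came from separate cultures, so p-values measure the spread between these libraries, which may be technical. Depth was 33605566 to 39072639 reads assigned to genes per library.

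As background, DNMT1 copies methylation onto new DNA strands after replication, guided by UHRF1, which binds half-methylated CpG sites. DNMT3A and DNMT3B set new methylation, with DNMT3L as a partner that lacks catalytic activity and is best known from germ cells and embryos. The TET proteins oxidise methylcytosine and so start its removal. TRIM28 is the corepressor that KRAB zinc finger proteins recruit to retroelements and imprinted regions, and SETDB1 is the histone methyltransferase that it brings along to mark histone H3 at lysine 9.

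The maintenance genes and the corepressor pair were abundant in both lines, and none of these 4 genes differed by the test, whereas 3 of the low to moderately expressed genes were higher in 4TO7. Those were Tet2 (2.71-fold as the ratio of line means), Dnmt3a (1.82-fold) and Tet3 (1.52-fold). Dnmt3b and Tet1 varied up to 3.62-fold and 3.89-fold among the 4T1 libraries and did not pass, and Dnmt3l was nearly unread. In bulk RNA, fewer cells with a transcript and less of it per cell cannot be told apart. Of the 10 genes, 9 passed the low-value filter (a normalised count of at least 10 in at least 3 of 6 libraries); 3 of the 9 were called higher in 4TO7, where 23.9% of all 14276 tested genes were, and 0 were called higher in 4T1, where 25.1% of all were (adjusted p under 0.05, limma on log2 values; 49.0% in either direction). limma also gave 0 higher in 4T1 at an unadjusted p under 0.05, and edgeR and DESeq2 gave 0 at an adjusted p under 0.05. Counts of 3 and 0 in 9 genes are near these shares and are not read as a property of the group. The lines did not overlap in these same 3 genes, all higher in 4TO7, where 28.7% of tested genes were apart in that direction, 29.8% in the other and 58.4% in either.

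**Figure D1:**
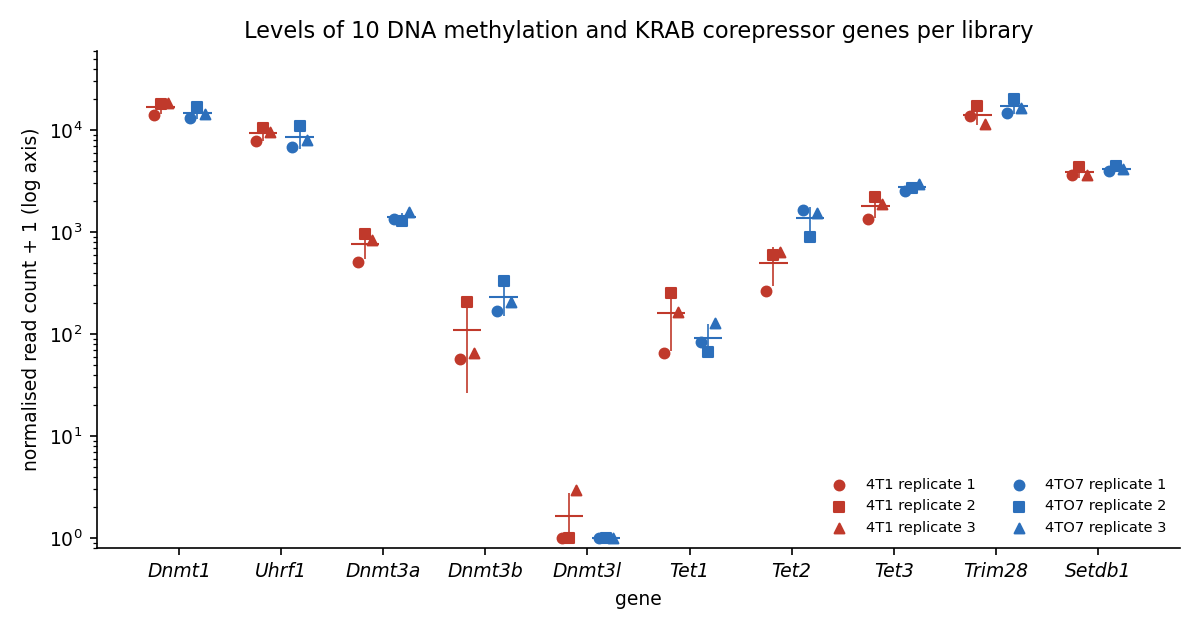
Normalised read count + 1 (log axis) of the 10 genes in each of the 6 libraries, 4T1 in red and 4TO7 in blue, with horizontal bars at the mean and vertical bars of 1 SD (n = 3 per line). Dnmt3a, Tet2 and Tet3 have all 4TO7 libraries above all 4T1 libraries, Dnmt3l lies at or near 0, and the other 6 genes overlap.

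Levels were compared between genes only per kilobase of annotated exon (GENCODE M21, all exons of a gene merged), because the genes differ in exonic length from 2.99 to 16.9 kb. In 4T1, Trim28 led at 3384 ± 691 normalised counts per kilobase (SD, n = 3), followed by Dnmt1 at 2279 ± 325 and Uhrf1 at 2182 ± 326, whose ranges overlapped. Setdb1 stood at 564 ± 65.8 per kilobase, apart from its neighbours in the order, and Tet3 at 108 ± 26.2. Dnmt3a, Tet2, Dnmt3b and Tet1 followed at 46.3, 29.7, 21.2 and 10.3 per kilobase, each overlapping the next in range. In 4TO7 the order was the same except that Uhrf1 and Dnmt1 (2024 ± 501 and 1998 ± 251 per kilobase) changed places within overlapping ranges. There Tet1, at 5.92 per kilobase, was separate from Dnmt3b at 45.4. Long untranslated ends of some transcripts lower a value per kilobase, so the order depends on the annotation used.

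Dnmt1, the maintenance methyltransferase (ENSMUSG00000004099, GRCm38 chromosome 9, 20907209 to 20959888, minus strand), had 14059, 17925 and 18458 normalised counts in 4T1 replicates 1 to 3. In 4TO7 replicates 1 to 3 it had 13047, 16712 and 14467. The ranges overlapped, with the lowest library of all in 4TO7 and the highest in 4T1. The log2 fold change, given here and below as 4T1 minus 4TO7 on the log2(value + 1) scale, was 0.19 ± 0.16 (SE), with a 95% interval from 0.887-fold to 1.46-fold (limma adjusted p = 0.352).

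Uhrf1, the hemimethylated DNA reader (ENSMUSG00000001228, chromosome 17, 56303321 to 56323486, plus strand), had 7755, 10459 and 9664 in the 4T1 libraries and 6841, 10989 and 8032 in the 4TO7 libraries. The lowest and the highest value both belonged to 4TO7. Its log2 fold change of 0.13 ± 0.20 (limma adjusted p = 0.63) had an interval from 0.795-fold to 1.5-fold. The sign was not fixed: with equal totals per sample it was -0.00, with quantile normalisation -0.03 and without 4TO7 replicate 1 -0.03.

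The ratio of Uhrf1 to Dnmt1 within a library, which does not depend on scaling, lay between 0.524 and 0.584 in 4T1 and between 0.524 and 0.658 in 4TO7. The mean log2 ratios differed by -0.06 (exact permutation test over libraries, two-sided p = 0.6, adjusted p = 0.6 over 5 ratios). DNA replication genes gave another picture. The MCM helicase subunits Mcm2 to Mcm7, which license replication origins, were taken as a geometric mean. Uhrf1 relative to them was 0.691, 0.912 and 0.79 in the 4T1 libraries and 1.2, 1.33 and 1.35 in the 4TO7 libraries. Dnmt1 relative to them was 1.25, 1.56 and 1.51 against 2.3, 2.03 and 2.43. In both ratios every 4TO7 library lay above every 4T1 library, by 0.71 and 0.65 in log2 units as differences of line means. Both ratios share the MCM denominator, and Uhrf1 and Dnmt1 alone had log2 fold changes of 0.13 and 0.19 toward 4T1, not called. The MCM genes had larger log2 fold changes toward 4T1, from 0.35 (Mcm6) to 1.55 (Mcm5). Mcm2 and Mcm6 were not called (limma adjusted p = 0.0637 and 0.0769). How the gap splits between the 2 sides of a ratio depends on the scaling and was not tested. With quantile normalisation Dnmt1 was at 0.03 and Uhrf1 at -0.03. With 3 libraries against 3 the exact permutation test cannot go below p = 0.1, which both ratios reached (adjusted p = 0.25), so neither can pass the threshold.

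**Figure D2:**
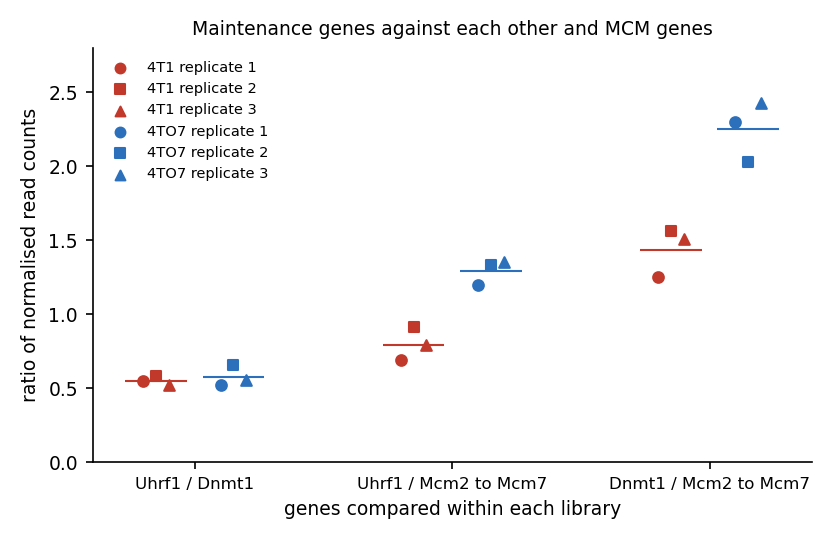
Ratio of normalised read counts within each library (linear axis from 0), for Uhrf1 over Dnmt1 and for each of them over the geometric mean of Mcm2 to Mcm7; points are libraries and bars are means of the log2 ratios. Uhrf1 over Dnmt1 overlaps between the lines, while both ratios to the MCM genes are higher in all 3 4TO7 libraries.

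Of 15 replication licensing and S phase genes, 9 were called toward 4T1 and 0 toward 4TO7 by limma, beside 25.1% and 23.9% of all tested genes. The count toward 4TO7 was also 0 at an unadjusted p under 0.05 and by edgeR and DESeq2. The list's median log2 fold change was 0.67 against 0.03 over all tested genes. Mcm5 was 2.86-fold, Mcm3 2.67-fold and Cdt1, a licensing factor, 2.6-fold higher in 4T1. In 10 general proliferation genes, only Cdk1 was called higher in 4T1, at 11323 ± 1127 against 6088 ± 1232, and 0 were called higher in 4TO7 (again 0 unadjusted and with edgeR and DESeq2). The highest Dnmt1, Uhrf1, Trim28, Setdb1 and Dnmt3b values of the 4TO7 line were in its replicate 2. Without that library the counts toward 4T1 rose to 12 of 15 and 6 of 10. The first count fell to 7 without 4T1 replicate 1, 4TO7 replicate 1 or 4TO7 replicate 3, and to 8 without 4T1 replicate 2 or 3. The second was 2 without 4T1 replicate 1, as it was with a correction for exonic length chosen after seeing the data. In the remaining fits without 1 library it was 1. The part of 4TO7 replicate 2 in the ratios above was not tested beyond leaving it out, which gave differences of -0.69 for Uhrf1 and -0.72 for Dnmt1 relative to the MCM genes.

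Of 8 partners of maintenance methylation, 4 were called toward 4T1 and 0 toward 4TO7 by limma, beside 25.1% and 23.9% of all tested genes. In either direction 49.0% of all tested genes were called. The count toward 4TO7 was also 0 unadjusted and with edgeR and DESeq2. The list's median log2 fold change was 0.49. Hells, a chromatin remodeller needed for methylation of heterochromatin, had 10331 ± 1730 in 4T1 and 4667 ± 1720 in 4TO7. Its cofactor Cdca7 had 2710 ± 468 against 1460 ± 304, and the related Cdca7l 3556 ± 99.5 against 1954 ± 305. Usp7, a deubiquitinase that binds DNMT1 and UHRF1, was 1.67-fold higher in 4T1, named here after its value was seen. Pcna, the replication clamp that holds DNMT1 at forks, was level by value at 9966 ± 743 and 10104 ± 1688 (limma adjusted p = 0.963).

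Dnmt3a, a de novo methyltransferase (ENSMUSG00000020661, chromosome 12, 3806007 to 3914443, plus strand), had 512, 962 and 839 normalised counts in 4T1 and 1357, 1291 and 1558 in 4TO7. Every 4TO7 library lay above every 4T1 library, and 4T1 replicate 1 was the lowest. The log2 fold change was -0.91 ± 0.24 with a 95% interval of -1.45 to -0.36 (limma adjusted p = 0.0138). It stayed called under all 19 alternatives run, with adjusted p from 0.00159 to 0.0476 and values from -1.09 to -0.64, the smallest being without 4T1 replicate 1. The authors' deposited table gives 0.86 for 4TO7 over 4T1 with an adjusted p of 0.00285.

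Dnmt3b, its paralogue (ENSMUSG00000027478, chromosome 2, 153649450 to 153687730, plus strand), had 56.5, 204 and 64.7 in 4T1 and 166, 327 and 203 in 4TO7. The 4T1 replicate 2 value lay inside the 4TO7 range and the other 4T1 values below it. The line means differed 2.14-fold toward 4TO7, and the log2 fold change of -1.28 ± 0.49 did not pass (limma adjusted p = 0.0598). Its 95% interval ran from -2.41 to -0.15, and without 4T1 replicate 2 it was called at -1.86 (adjusted p = 0.00661). In all, 4 of the 19 alternatives called it, DESeq2 on recovered reads (adjusted p = 0.0445) and equal totals per sample (0.0364) among them. In the authors' deposited table it has 1.10 for 4TO7 over 4T1 with an adjusted p of 0.0563. The ratio of Dnmt3b to Dnmt3a within a library overlapped between the lines, at 0.0782 to 0.213 in 4T1 and 0.123 to 0.254 in 4TO7 (exact permutation p = 0.5). In each line replicate 2 held the highest ratio.

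Dnmt3l, the partner without catalysis (ENSMUSG00000000730, chromosome 10, 78041947 to 78063622), had 2 reads in all, both in 4T1 replicate 3. None of the 104742527 reads of the 4TO7 libraries fell on it, which allows up to 3 reads over that line, for counting error only. Both lines are at or below that floor, so no fold is given and the gene was not tested. It overlaps Aire, which lies on the opposite strand with means of 8.78 in 4T1 and 11.9 in 4TO7; the sources used here do not state a strand setting for counting.

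Tet1, a dioxygenase best known from embryonic cells (ENSMUSG00000047146, chromosome 10, 62804570 to 62908996, minus strand), had 64.6, 251 and 164 in 4T1 and 82.3, 65 and 127 in 4TO7. The lowest library of each line was level, at 64.6 (64 reads) in 4T1 and 65 (62 reads) in 4TO7. Replicates 2 and 3 of 4T1 lay above the whole 4TO7 range. The log2 fold change of 0.65 ± 0.49 was the only one of the 3 TET genes toward 4T1 and did not pass (limma adjusted p = 0.3; 95% interval -0.47 to 1.77). Without 4T1 replicate 1 it was 1.20 and called (adjusted p = 0.0438), the 1 alternative of 19 that called it.

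Tet2, the family member that lacks its own DNA-binding zinc finger domain (ENSMUSG00000040943, chromosome 3, 133463679 to 133545139, minus strand), had 264, 601 and 637 in 4T1 and 1635, 898 and 1540 in 4TO7. The lines were apart, with 4T1 replicate 1 the lowest and 4TO7 replicate 2 the lowest of its line. Among the 9 tested members it had the largest difference, a log2 fold change of -1.49 ± 0.37 (95% interval -2.34 to -0.65; limma adjusted p = 0.0105). All 19 alternatives called it, from -1.77 without 4TO7 replicate 2 to -1.08 without 4T1 replicate 1 (adjusted p 0.000147 to 0.0384). In size it exceeded 82.1% of all tested genes. The authors' deposited table has 1.44 for 4TO7 over 4T1 and an adjusted p of 0.000228.

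Tet3, the third dioxygenase (ENSMUSG00000034832, chromosome 6, 83362373 to 83459084, minus strand), was the most abundant of the family per kilobase in both lines. It had 1330, 2192 and 1887 in 4T1 and 2513, 2709 and 2989 in 4TO7, again without overlap. The log2 fold change was -0.63 ± 0.20 (95% interval -1.08 to -0.18; limma adjusted p = 0.0281). It missed the threshold when 4T1 replicate 1 was left out (-0.42, adjusted p = 0.0526), and likewise for 4T1 replicate 3 (0.052), 4TO7 replicate 1 (0.0526) and 4TO7 replicate 3 (0.0905).

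**Figure D3:**
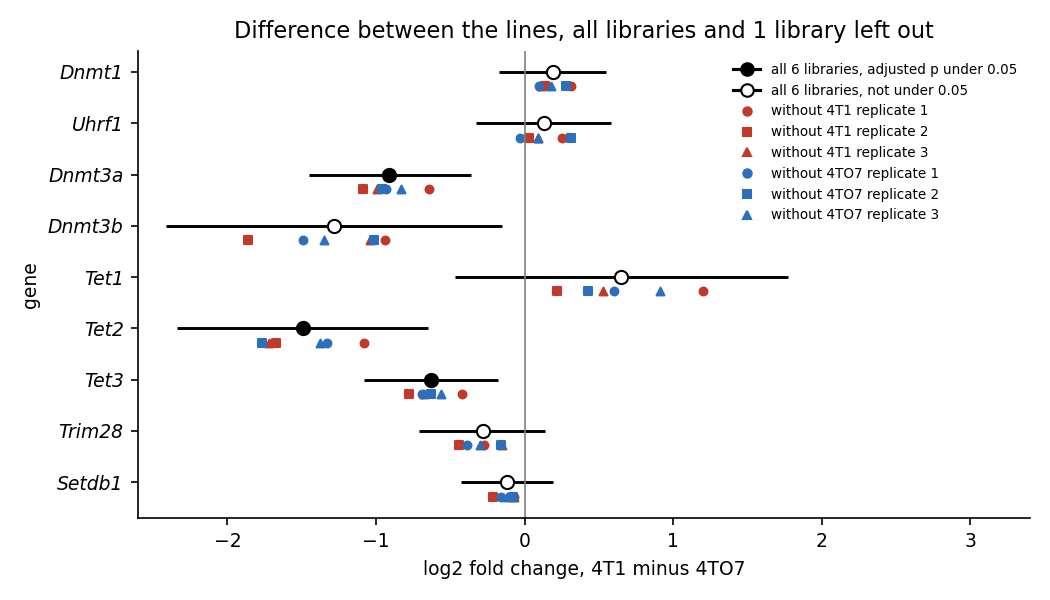
Log2 fold change, 4T1 minus 4TO7, of the 9 tested genes: large circles with 95% intervals for all 6 libraries (filled where the adjusted p is under 0.05) and small symbols for fits without 1 library. Tet2, Dnmt3a, Tet3, Dnmt3b, Trim28 and Setdb1 stay below 0 in each fit. Tet3 moves from -0.63 to -0.42 without 4T1 replicate 1, and Tet1 and Dnmt3b shift most with the library left out.

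These genes are shown with the 250 bases before a RefSeq start site, because 3 of them were the members called higher in 4TO7 and Dnmt3b is the paralogue of one of them. The windows come from the RefSeq promoter table (GRCm38.p6), hold no annotated exon and are written 5′ to 3′ on the gene's strand, with each CG dinucleotide, the site these enzymes act on, in capitals. Those of Dnmt3a, Tet2 and Tet3 lie inside longer annotated transcripts of the same gene, as intron, and that of Dnmt3b lies before the gene.
Tet2, chr3:133544391-133544640, minus strand: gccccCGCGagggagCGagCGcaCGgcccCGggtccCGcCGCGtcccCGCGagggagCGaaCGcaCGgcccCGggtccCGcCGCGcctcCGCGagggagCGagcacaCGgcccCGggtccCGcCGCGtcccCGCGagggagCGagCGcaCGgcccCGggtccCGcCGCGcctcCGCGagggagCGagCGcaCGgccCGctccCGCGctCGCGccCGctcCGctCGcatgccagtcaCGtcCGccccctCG
Tet3, chr6:83441679-83441928, minus strand: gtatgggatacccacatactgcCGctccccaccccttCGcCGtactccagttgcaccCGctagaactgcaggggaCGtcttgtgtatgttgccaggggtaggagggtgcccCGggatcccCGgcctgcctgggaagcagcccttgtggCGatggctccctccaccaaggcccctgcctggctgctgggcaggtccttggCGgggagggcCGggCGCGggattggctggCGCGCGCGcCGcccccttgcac
Dnmt3a, chr12:3806730-3806979, plus strand: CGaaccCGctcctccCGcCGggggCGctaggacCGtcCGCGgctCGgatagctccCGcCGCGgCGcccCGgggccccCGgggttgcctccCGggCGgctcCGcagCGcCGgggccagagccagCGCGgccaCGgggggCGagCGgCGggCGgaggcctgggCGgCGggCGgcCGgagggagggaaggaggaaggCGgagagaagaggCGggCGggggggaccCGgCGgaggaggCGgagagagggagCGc
Dnmt3b, chr2:153649199-153649448, plus strand: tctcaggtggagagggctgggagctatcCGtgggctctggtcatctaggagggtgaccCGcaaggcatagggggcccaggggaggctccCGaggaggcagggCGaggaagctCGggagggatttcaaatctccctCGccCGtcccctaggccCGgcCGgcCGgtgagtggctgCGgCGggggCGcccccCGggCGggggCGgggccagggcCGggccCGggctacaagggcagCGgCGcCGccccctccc
The Tet2 window held 51 CG sites, more than 99.9% of the 32851 windows of this length, and the Dnmt3a window shown 38, more than 98.1%. Dnmt3a has 2 other windows, with 40 and 15 CG sites, which overlap annotated exon and are not shown. Dnmt3b had 21 and Tet3 17, where the median window had 6. Within the Tet2 window the 12 bases CCGCGAGGGAGC, picked as its most repeated run, stood 5 times on the strand shown; 1 of the 32851 windows held any copy on its strand, namely this one. All 10 genes matched the table, with 17 windows. The GGGCGG box, searched on both strands, was in 13 of these 17 windows and in 32.7% of all windows. Some of the 17 windows come from the same gene, and 13 of them had at least the median number of CG sites. The 2 shares were therefore not compared by a test. A match describes letters only, and methylation of these windows was not measured.

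Trim28, the KRAB corepressor (ENSMUSG00000005566, chromosome 7, 12999114 to 13031035, plus strand), had 13638, 17140 and 11439 in 4T1 and 14632, 20029 and 16503 in 4TO7. The ranges overlapped and the line means differed 1.21-fold toward 4TO7. The log2 fold change of -0.28 ± 0.18 did not pass (limma adjusted p = 0.232), with an interval from 0.612-fold to 1.1-fold. It was called with quantile normalisation (-0.46, adjusted p = 0.0448), the 1 alternative of 19 to do so. Its span overlaps Zbtb45, on the opposite strand with means of 655 and 833.

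Setdb1, its histone methyltransferase (ENSMUSG00000015697, chromosome 3, 95323525 to 95357202, minus strand), was the steadiest of the group, with 3588, 4387 and 3625 in 4T1 and 3962, 4425 and 4162 in 4TO7. The coefficient of variation was 11.7% and 5.55% in the lines. The log2 fold change was -0.12 ± 0.13 (limma adjusted p = 0.496; interval 0.744-fold to 1.14-fold). Its annotated span overlaps Cers2 on the opposite strand, which had more reads, so counts from their shared bases are uncertain. Setdb1 over Trim28 within a library was 0.256 to 0.317 in 4T1 and 0.221 to 0.271 in 4TO7, overlapping ranges (exact permutation p = 0.4).

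The other genes of these pathways went both ways. In 11 lists, 100 genes passed the filter; 3 of them, Atf7ip2, Brdt and Tex11, reached the filter value in 1 line alone and so had to differ. Of the other 97, 28 were called toward 4T1 and 14 toward 4TO7, beside 25.1% and 23.9% of all tested genes. That balance turned on the scaling: the counts were 22 and 23 with equal totals per sample, and 24 and 20 with quantile normalisation. Among 9 readers of methylated DNA, 4 were called toward 4T1 and 2 toward 4TO7. Mbd4, a reader with glycosylase activity, was 1.74-fold higher in 4TO7 (692 ± 11.9 against 397 ± 32.9). Zbtb38, a zinc finger reader, was 2.47-fold higher in 4T1. Without 4TO7 replicate 1 the readers higher in 4T1 numbered 2.

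Partners of active demethylation numbered 10, of which 3 rose toward each line. Tdg, the glycosylase that removes the bases TET proteins oxidise, had 753, 948 and 877 in 4T1 against 344, 506 and 309 in 4TO7. It was 2.22-fold higher in 4T1 (log2 fold change 1.18 ± 0.22, limma adjusted p = 0.00282), the direction opposite to Tet2 and Tet3. Gadd45b, a stress gene linked to demethylation, was 4.19-fold higher in 4T1, and its relative Gadd45g 2.1-fold higher in 4TO7, a call lost without 4T1 replicate 2, 4T1 replicate 3 or 4TO7 replicate 3 (adjusted p 0.077 to 0.0842), where the count toward 4TO7 fell to 1. Of 7 genes listed as methyl donor enzymes or their relatives, Ahcyl1, a relative of Ahcy, was 1.54-fold higher in 4T1. Ahcy itself did not pass (log2 fold change 0.24, limma adjusted p = 0.261). Mtr, methionine synthase, was 1.58-fold higher in 4TO7. Mtr did not pass in the fits that dropped 4T1 replicate 1 or 3, or 4TO7 replicate 2 or 3 (adjusted p 0.0859 to 0.137), so the count toward 4TO7 was 0 there; it was 3 with equal totals per sample and 2 with quantile normalisation.

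Of 17 KRAB corepressor partners, 2 were called toward 4T1, among them Atf7ip2, which passed the filter through 4T1 alone, and 3 toward 4TO7; the median log2 fold change was -0.02. With equal totals per sample the counts were 1 and 6, and with quantile normalisation 1 and 5. Trim24, a relative of TRIM28, had 3262 ± 249 in 4TO7 and 1436 ± 135 in 4T1. Chd4, the remodeller of the NuRD complex, was 1.56-fold higher in 4TO7, but not when 4T1 replicate 1, 4T1 replicate 3 or 4TO7 replicate 3 was left out (adjusted p 0.0584 to 0.0653). Without 4TO7 replicate 3 the count toward 4TO7 was 1, and the count toward 4T1 was 1 without 4T1 replicate 2 or 3 or 4TO7 replicate 1 or 3. Atf7ip2, related to the SETDB1 partner ATF7IP, had 323 reads in 4T1 and 1 read in 4TO7, a ratio of 323 (exact 95% interval 57.5 to 12784, counting error only). Atf7ip itself, named after its value was seen, was 1.5-fold higher in 4TO7 at 4998 ± 800.3 against 3321 ± 529 (limma adjusted p = 0.0238; 0.0655 to 0.0901 without 4T1 replicate 1, 4TO7 replicate 1 or 4TO7 replicate 3). The 3 heterochromatin protein genes Cbx1, Cbx3 and Cbx5 did not pass (adjusted p 0.1 to 0.965). In the HUSH list, Mphosph8 was 1 of 4 called, 1.41-fold toward 4T1, and that call was lost in each fit without 1 library (adjusted p 0.0537 to 0.121) other than that without 4TO7 replicate 2, where 2 of the 4 were called. Equal totals per sample also ended it (0 of 4 called).

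Another 11 enzymes act on H3 lysine 9; 10 passed the filter, with 3 called toward each line. With equal totals per sample 2 were called toward 4T1 and 6 toward 4TO7, and with quantile normalisation 2 and 5. Suv39h2, a methyltransferase, was 2.02-fold higher in 4T1. The demethylases Kdm4a and Kdm3a were 1.94-fold and 1.85-fold higher in 4TO7. The count toward 4T1 was 1 without 4T1 replicate 2, 4TO7 replicate 1 or 4TO7 replicate 3. Of 8 tested KRAB zinc finger genes, Zfp30 was 2.7-fold and Zfp57, which guards imprinted methylation, 2.11-fold higher in 4TO7 (474 ± 25 against 225 ± 34). Gm15446 was 1.86-fold higher in 4T1, a call lost in each fit without 1 library (adjusted p 0.0549 to 0.136) other than that without 4TO7 replicate 2. Equal totals per sample and quantile normalisation also ended it. Zfp445, which acts with Zfp57 at imprints, had 1550 ± 725 and 1777 ± 148 (limma adjusted p = 0.453).

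Germline genes whose promoters are methylated in somatic cells were mostly unread. Of 22, 15 had at most 3 reads over the 6 libraries and 2 passed the filter, both through 4TO7. Brdt, a testis bromodomain gene, had 8.07, 0 and 6.76 in 4T1 and 283, 53.5 and 248 in 4TO7. Tex11, a meiotic gene on the X chromosome, had 0 reads in 4T1 and 64 in 4TO7, at least 21.4-fold higher against 3 reads over the 4T1 libraries. A gene that passes the filter through 1 line had to differ, so these are values and not a result of the list.

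**Figure D4:**
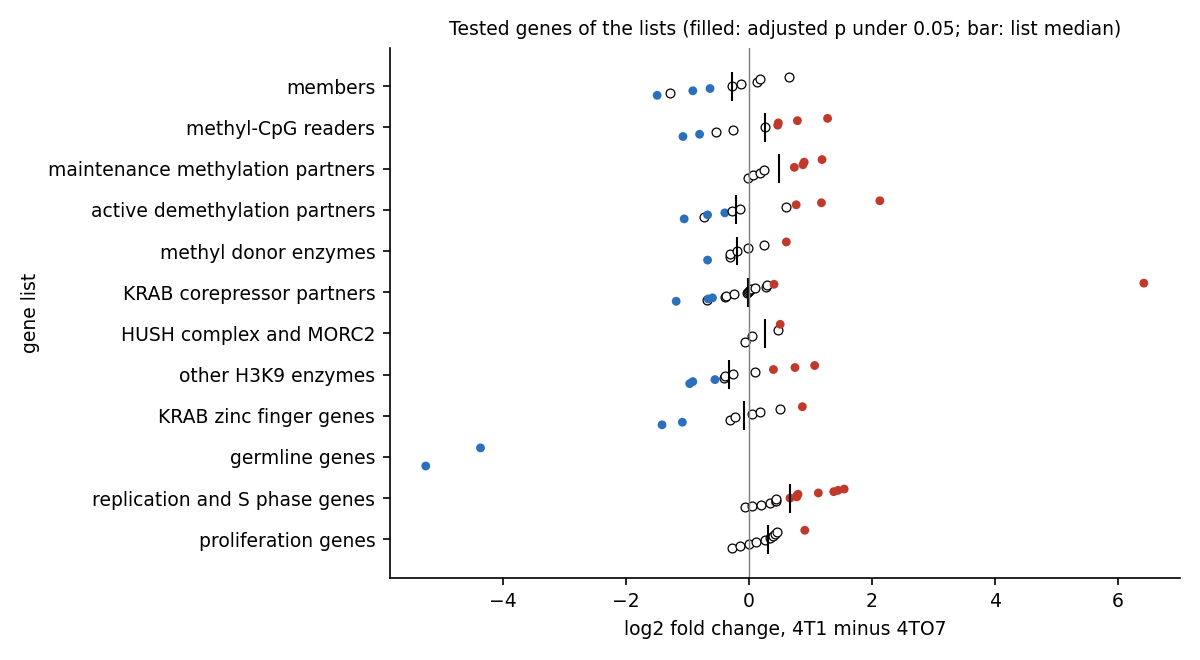
Log2 fold change, 4T1 minus 4TO7, of each tested gene in the 10 members' group (top) and the 11 other lists; filled points have an adjusted p under 0.05 (red higher in 4T1, blue higher in 4TO7) and bars are medians of lists with more than 2 tested genes. Replication genes and maintenance partners sit mostly to the right, the 2 tested germline genes lie far to the left, and the other lists hold points on both sides of 0.

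One 4T1 library was low for long transcripts, a class that holds 4 of the members. Tet2, Tet3, Dnmt3a and Tet1 have 15.5 to 16.9 kb of annotated exon. In 4T1 replicate 1 the median gene over 8 kb lay -0.32 (log2) from the other 4T1 libraries and the median gene up to 1 kb 0.22 above them, whereas in the 4TO7 libraries these medians lay between -0.04 and 0.06. The deviations of these 4 genes in that library were larger: -1.64 for Tet1, -1.22 for Tet2, -0.81 for Dnmt3a and -0.61 for Tet3. Shorter members were low there too, at -1.01 for Dnmt3b (5.11 kb) and -0.37 for both Dnmt1 (7.38 kb) and Uhrf1 (4.26 kb). The median gene of 4 to 8 kb lay at -0.05. Setdb1 was at -0.15 and Trim28 at -0.04. It was the lowest 4T1 library in 8 of 9 tested members, Trim28 being the exception. With a curve over exonic length removed from each library, an alternative chosen after seeing the data, Tet2 (-1.34, limma adjusted p = 0.00607), Dnmt3a (-0.76, 0.00414) and Tet3 (-0.48, 0.0115) remained called toward 4TO7. Without that library the members called higher in 4TO7 were Tet2 (-1.08, 0.026) and Dnmt3a (-0.64, 0.0201), and Tet1 was called higher in 4T1.

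**Figure D5:**
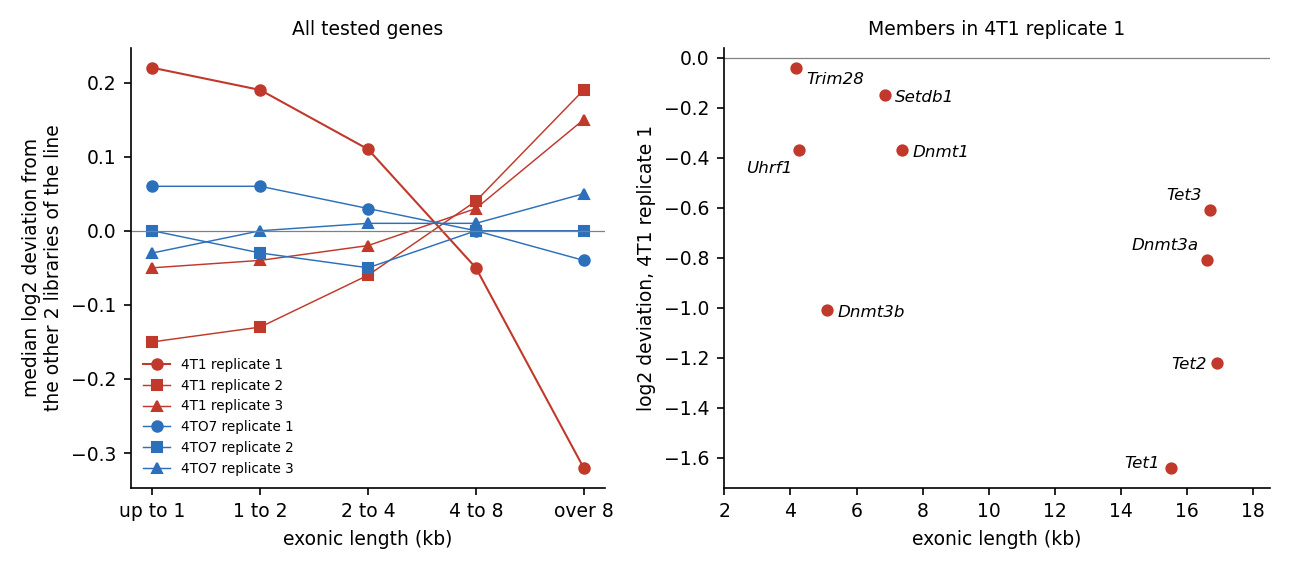
Left, median log2 deviation of each library from the other 2 libraries of its line, for all tested genes in 5 classes of exonic length. Right, the same deviation of the 9 tested members in 4T1 replicate 1 against exonic length in kb. The 4T1 replicate 1 line falls from 0.22 for the shortest class to -0.32 for the longest. Tet1, Tet2, Dnmt3a and Tet3 lie lower still, as do the shorter Dnmt3b, Dnmt1 and Uhrf1.

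Neighbouring genes were compared as a description, taking the 5 nearest tested genes on each side. Around Dnmt3a, 0 of 10 neighbours were called by limma (2 counts of 0, toward either line), with log2 fold changes from -0.55 to 0.60 and a median of -0.11, so the difference of -0.91 stood outside its segment's range. Around Tet2 the neighbours ranged from -4.30 to 1.69, with 2 called toward 4T1 and 4 toward 4TO7. Dnmt3b lay among neighbours that leaned its way, 7 of 10 called higher in 4TO7 and 1 higher in 4T1 (median -0.68 over 1248 kb). Around Tet3, 3 of 10 were higher in 4TO7, with a median of -0.34.

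By profile over the 6 libraries (Euclidean distance between centred log2 values), the tested genes nearest to Tet2 were Gm16001, Zkscan7 and Atp7a, at distances of 0.322, 0.412 and 0.412. Atp7a, a copper transporter gene, had 292, 868 and 899 in 4T1 and 1916, 1182 and 1648 in 4TO7, low in the same libraries as Tet2. Nearest to Tet1 were Gm9845, Gm43268 and Gm11696, at 0.695 to 0.759, all read at low levels. Likeness over 6 libraries of 2 lines is descriptive.

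The line labels were checked against markers. All 8 epithelial markers were higher in 4T1 than in 4TO7, though Krt19 and Cldn3 reached the filter value in 4T1 alone and so had to differ. In 4TO7, Krt8 and Krt18 remained at 21578 ± 3811 and 13535 ± 4763 while Epcam had 23.7 ± 9.25 and Cldn3 1.34 ± 0.653, near 0 there. The leukocyte markers Cd3e, Tyrobp and Laptm5 had 0 reads and Ptprc 12 and 1 reads in the lines. Of the 8 leukocyte markers Cd68 and Csf1r passed the filter. Cd68 was higher in 4T1, at 323 ± 102 against 118 ± 34.3 (limma adjusted p = 0.00534). Csf1r, at 28 ± 6.34 in 4T1 against 3.03 ± 1.91, reached the filter value in 4T1 alone and so had to differ. The list summed to 251 to 470.1 in 4T1 and 93.6 to 158 in 4TO7. The 8 stromal markers summed to 591 to 1372 in 4T1 and 1722 to 7523 in 4TO7, nearly all Pdgfra, with Col3a1 and Lum at 0 reads. Both tested stromal genes were higher in 4TO7, Pdgfra 5.89-fold (limma adjusted p = 0.00769) and Pdgfrb 3.85-fold (0.032); their part in the members' differences was not tested. The 7 endothelial markers summed to at most 78.6 and the 6 adipocyte and erythroid markers to at most 16.9 in a library, with Erg, Hbb-bs and Alas2 at 0 reads.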

How the data were processed

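Total RNA was sequenced in 6 libraries, 3 per line. The submitters' processing notes name STAR 2.5, featureCounts 1.5, DESeq2 and the build GRCm38; an annotation release and a strand setting are not given in the sources used here. The deposited sample columns hold a normalised signal, gene counts over a library's size factor (per the file headers, and from the values): all values were whole multiples of 1 step per library (tolerance 1e-06), so reads could be recovered. The authors' deposited table also gives a log2 fold change with its error, a test score and raw and adjusted p-values.

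The 14276 genes that reached a value of 10 in 3 or more of 6 libraries were tested on log2(value + 1) with limma 3.58.1 (R 4.3.3; group alone, intensity trend, robust moderation), two-sided, with Benjamini-Hochberg adjustment over all of them and a threshold of 0.05. Fold changes on this scale understate those of low genes; folds without log2 are ratios of line means. edgeR 4.0.16 and DESeq2 1.42.0 were run on recovered reads as alternatives. Scripts were tested on simulated data. Coordinates and exon lengths come from GENCODE M21 (GRCm38), which placed 99.1% of listed genes; promoter windows come from RefSeq.

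The members and gene lists were chosen with earlier results of these data known. All members are named, with up to 3 called genes per list by size of fold change, the 3 nearest profiles to Tet2 and Tet1, and neighbours; other genes named were picked after their values were seen. Across genes, r within a line was 0.978 to 0.993, and no library matched another within sampling noise (chi-square per gene of at least 24.4). Itgam, listed under 2 identifiers, was taken as the row with more reads. Values of some list genes are not reported here.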

Additional observations from a re-analysis of the deposited data

How the results depend on the processing

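Alternatives changed the pseudocount, filter, scaling, variance model, tool and libraries, added the replicate number as a block or, chosen after seeing the data, a length correction and equal totals without 4T1 replicate 1. Dnmt3a and Tet2 kept their direction and call in all 19; Dnmt1, Uhrf1 and Setdb1 were called in 0 of 19 (limma, edgeR and DESeq2). Uhrf1 changed sign with equal totals per sample (-0.00), quantile normalisation (-0.03) and without 4TO7 replicate 1 (-0.03), the range over left-out libraries being -0.03 to 0.31. Members called higher in 4T1 went from 0 to 1 without 4T1 replicate 1, the range over left-out libraries being 0 to 1; those higher in 4TO7 ranged from 2 to 4. Equal totals per sample moved the median of all genes from 0.03 to -0.095. They moved the companion genes called from 29 toward 4T1 and 16 toward 4TO7 to 23 and 25 (quantile normalisation gave 25 and 22). Leaving out single libraries gave 20 (without 4TO7 replicate 1) to 39 (without 4TO7 replicate 2) toward 4T1. Toward 4TO7 it gave 10 (without 4TO7 replicate 3) to 17 (without 4TO7 replicate 2). The causes were not tested. Samples of replicate numbers 1, 2 and 3 correlated in their deviations at -0.013, 0.266 and 0.328. The labels give no more than this number, and whether it pairs the libraries was not tested. With the replicate block 3990 genes were called toward 4T1 and 3760 toward 4TO7, instead of 3585 and 3412. Dnmt3b was then called (limma adjusted p = 0.00518), and so were 5 KRAB corepressor partners toward 4TO7 and 4 proliferation genes toward 4T1. Of 485 refits of the 27 companion genes named by the rule, 461 kept direction and call, 24 lost the call and 0 reversed. Fewer than 3 reads per line, as for Dnmt3l, allow no comparison.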
